A study of Homo sapiens with 24 samples.

Results

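Cell cycle and DNA replication genes were followed in maps of N1-methyladenosine (m1A) made in HEK293T cells, a human embryonic kidney line. The group was a list of 44 named genes, and every peak on a transcript carrying one of these symbols was taken, whatever its value. Of the 44 genes, 41 had a peak in at least 1 of 10 peak lists, against 9318 genes in all, and they held 364 of 61237 peaks on 80 transcripts. The 3 genes with no peak were the cyclin genes CCND1 and CCNE2 and CDKN1B, which encodes the inhibitor p27.

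The lists came from anti-m1A immunoprecipitation (IP) of polyadenylated RNA, with 2 replicates in each of 5 groups. KO cells had the ALKBH3 gene knocked out and WT cells were wild type. H2O2 cells were wild-type cells given 50 µM hydrogen peroxide for 30 min, Starve cells were wild-type cells kept without serum for 16 h, and UT cells were untreated wild-type cells. The labels do not say how many clones the KO line stands for. The descriptions of the untreated libraries name the starved lists, whereas the files are named as a separate UT pair, so each comparison with UT rests on the file naming. HEK293T cells express the large T antigen of SV40, which binds the RB1 protein, and this holds for all 5 groups.

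m1A carries a methyl group on the base-pairing edge of adenosine, so it blocks base pairing and stops reverse transcriptase. ALKBH3 is a demethylase that can remove it from RNA. Cells enter the cycle when cyclin D kinases and then cyclin E with CDK2 phosphorylate RB1, which frees E2F factors to transcribe replication genes. CDC6, ORC1 and CDT1 load the MCM2 to MCM7 helicase on origins in G1, geminin (GMNN) blocks CDT1 afterwards, and CDK1 with cyclin B, the Aurora kinases and PLK1 drive mitosis. Serum removal withdraws growth signals that act through the cyclin D step.

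TYMS, CDT1 and E2F1 are shown by sequence because each had 1 region that began within 100 nt of its transcript start and was called in at least 8 of the 10 lists. CCND3 had one as well, but its start in the table is not the 5′ end of the gene, and it is not shown. The runs below are RefSeq sequence of build GRCh38.p14, 5′ to 3′ on the gene's strand, with the 40 bases before the annotated start in lower case and the first 30 transcribed bases in capitals. TYMS lies at chr18:657613-657682 (plus strand), CDT1 at chr16:88803749-88803818 (plus strand) and E2F1 at chr20:33686356-33686425 (minus strand).
TYMS: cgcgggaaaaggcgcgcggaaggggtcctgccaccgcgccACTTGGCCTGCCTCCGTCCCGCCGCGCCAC
CDT1: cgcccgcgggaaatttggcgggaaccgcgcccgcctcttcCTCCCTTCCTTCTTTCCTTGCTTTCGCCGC
E2F1: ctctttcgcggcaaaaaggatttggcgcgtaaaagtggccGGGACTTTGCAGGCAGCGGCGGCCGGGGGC
The share of G and C in the transcribed stretches was 76.7% in TYMS, 56.7% in CDT1 and 80.0% in E2F1. Over the first 50 transcribed bases it was 76%, 64% and 78%. The medians over those 50 bases were 60% for all promoters and 68% for those of genes with a peak. Each promoter stretch held an E2F-type motif, searched as the 4 strings TTTCCCGC, TTTCGCGC, TTTGCCGC and TTTGGCGC on both strands. TYMS held GCGGGAAA starting 39 bases before the start and CDT1 held GCGGGAAA starting 35 bases before it. E2F1 held GCGGCAAA and TTTGGCGC, starting 33 and 20 bases before the start. Over windows of 300 bases around the annotated starts, 13 of the 37 member promoters in the RefSeq table held such a string (35.1%), against 908 of 27305 promoters (3.33%) and 5.82% of the 7589 promoters of genes with a peak. A match describes the letters only.

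The data are lists of called regions, so a missing peak means that none was called there, not that the RNA was unmethylated. In bulk RNA of this kind, fewer cells of a cycle phase and less RNA per cell cannot be told apart. The lists held 2175 to 11362 peaks. The deposited fold of each peak, its enrichment over nearby background by the authors' peak caller, ranks peaks within 1 list only. A peak is called or not in each list, and an exact two-sided permutation test of 2 lists against 2 cannot go below 0.333, so no test was made of the calls of a single region. ALKBH3 itself had 0 peaks in all 10 lists, which leaves the knockout unchecked here. Of 5 genes marking the HEK293T line, NEFL had peaks in 3 lists, NEFM in 5, VIM in 5, PAX2 in 1 and LHX1 in 0. Of 7 genes marking other cell types, COL1A1 had peaks in both UT lists and the other 6 had none in any list.

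Members were called more often than genes at large in each of the 10 lists at full length. The members were chosen with earlier results of these data known and were not matched to other genes. Whether the excess is particular to them was not tested. Of the 41 members, 18 and 16 had a peak in the KO lists (43.9% and 39.0%, against 22.1% and 22.4% of all genes). In the WT lists 14 and 10 members had one (34.1% and 24.4%, against 13.5% and 21.9%). The H2O2 lists held 21 and 10 members (51.2% and 24.4%, against 37.5% and 21.6%). The Starve lists held 34 and 23 members (82.9% and 56.1%, against 51.9% and 41.3%), and the UT lists 18 and 24 (43.9% and 58.5%, against 39.7% and 45.4%). The highest count thus belonged to the first Starve list, the longest of the 10 with 11362 peaks. When each list was cut to its 2175 strongest peaks, the KO lists held 16 and 13 members (39.0% and 31.7%, against 14.2% and 14.4% of all genes) and the WT lists 14 and 9 (34.1% and 22.0%, against 13.5% and 14.4%). The H2O2 lists then held 8 and 7 (19.5% and 17.1%, against 13.2% and 13.03%), the Starve lists 9 and 8 (22.0% and 19.5%, against 13.4% and 13.2%), and the UT lists 8 and 5 (19.5% and 12.2%, against 13.4% and 13.3%).

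**Figure D1:**
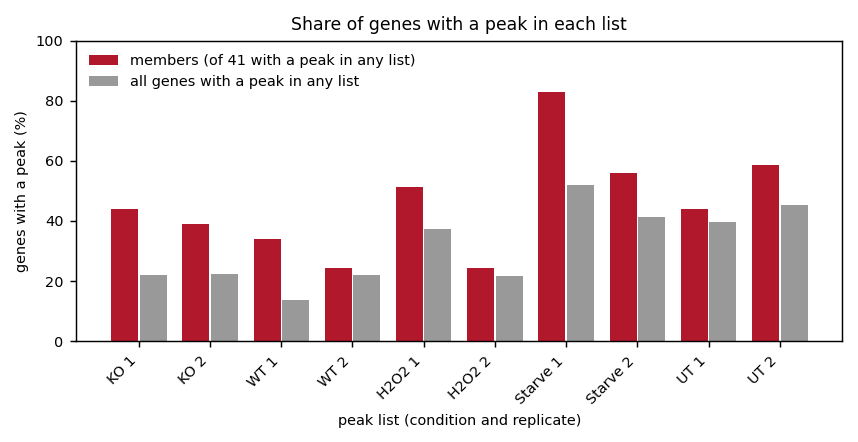
Percent of genes with a peak in each list, for the 41 members with a peak anywhere (red) and all 9318 genes with a peak anywhere (grey). The member share exceeded the share of all genes in each of the 10 lists, by most in the first Starve list, 82.9% against 51.9%.

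**Figure D2:**
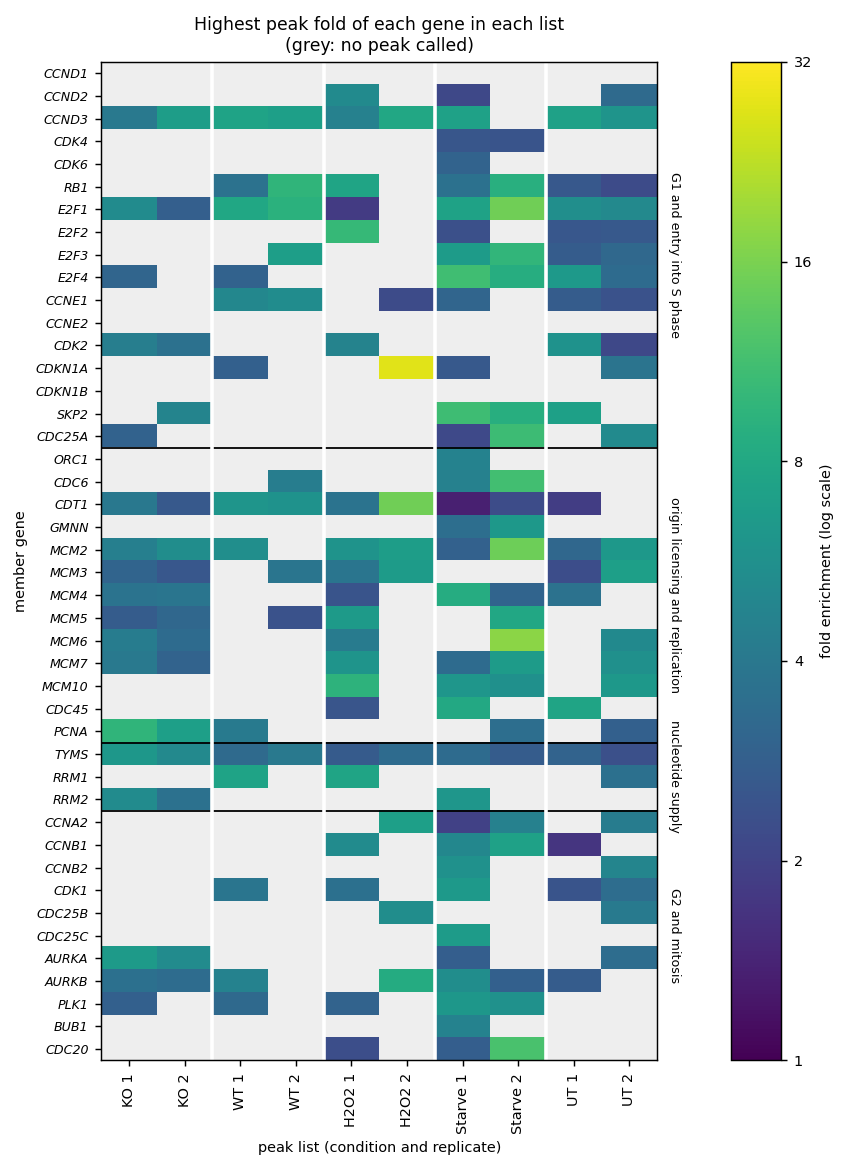
Highest fold of any peak of each member gene (rows, grouped by role) in each peak list (columns) on a log colour scale, grey where no peak was called. TYMS is filled in all 10 lists, CCND3, E2F1, CDT1 and MCM2 in 9, and the rows of CCND1, CCNE2 and CDKN1B are empty.

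The members were also counted by role. Beside these counts stand the shares of all genes with a peak given above, which were themselves higher in the first Starve list (51.9%) than in the first UT list (39.7%), and higher in both KO lists (22.1% and 22.4%) than in the WT lists (13.5% and 21.9%). Of the 11 genes of G2 and mitosis, 10 and 5 had a peak in the Starve lists, against 3 and 5 in the UT lists, and 4 and 3 did in the H2O2 lists. The KO lists held 3 and 2 of them and the WT lists 3 and 0. Of the 13 genes of origin licensing and replication, 9 and 10 had a peak in the Starve lists, against 5 and 6 in the UT lists. The KO lists held 8 and 8 of these, against 3 and 4 in the WT lists. Of the 17 genes of G1 and entry into S phase, 13 and 7 had a peak in the Starve lists, against 9 and 11 in the UT lists, whose counts lay between them. The 3 genes of nucleotide supply had 1 or 2 called in every list.

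Of the 41 members, 27 had a peak in 4 or more lists (65.9%), against 35.3% of all genes. TYMS, which makes the thymidylate needed for DNA synthesis, was the only member with a peak in all 10 lists. CCND3 (cyclin D3), E2F1, CDT1 and MCM2 had peaks in 9 lists each. In all, 5 of 41 members (12.2%) were called in 8 lists or more, against 5.48% of all genes. At the other end, BUB1, CDC25C, CDK4, CDK6, GMNN and ORC1 had peaks in Starve lists only. These 6 genes are 14.6% of the members, against 13.2% of all genes, so the share was close to the background. BUB1, CDC25C, CDK6 and ORC1 were called in the first Starve list alone. They were the only members with a peak in 1 list (4 of 41), against 28.7% of all genes.

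The TYMS peak began 18 to 79 nt from the transcript start (NM_001071) and its summit lay at nt 113 to 163. Its fold was 6.30 and 5.11 in the KO lists, 3.33 and 4.07 in the WT lists, 2.70 and 3.36 in the H2O2 lists, 2.31 and 2.74 in the Starve lists, and 2.997 and 2.33 in the UT lists. The coverage at its summit, as deposited and not scaled for depth, was 1187 to 2742. This placed it above 98.0% to 99.8% of the peaks of its list by coverage, whereas its rank by fold was between 7.63% and 87.2%. Outside the KO lists its fold ranked above at most 57.5% of the peaks of a list, although its coverage there was among the deepest.

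CDT1 also had deep coverage, with a fold whose rank differed between conditions. Its start region (NM_030928) had folds of 4.004 and 2.64 in the KO lists, 6.10 and 5.84 in the WT lists, 2.24 and 2.50 in the H2O2 lists, 1.36 and 2.24 in the Starve lists and 1.88 in the first UT list. No CDT1 peak was called in the second UT list. Coverage at the summit was 433 to 2563, above 93.8% to 99.6% of peaks in the same list. By fold it ranked above 57.6% and 21.2% of peaks in the KO lists, 83.7% and 81.8% in the WT lists, and at most 7.84% in the H2O2, Starve and UT lists. The summits lay at nt 227 and 216 in KO, but at nt 135 and 136 in WT. In the second Starve list, of wild-type genotype, the summit lay at nt 207. In both H2O2 lists, the first Starve list and the first UT list it lay at nt 131 to 142.

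The start region of CCND3 (NM_001287427) had folds of 4.09 and 6.81 in the KO lists, 7.47 and 7.03 in the WT lists, 4.07 and 7.82 in the H2O2 lists, 7.23 in the first Starve list, and 7.11 and 5.56 in the UT lists. It was missing from the second Starve list only. The start region of E2F1 (NM_005225) had folds of 5.30 and 2.86 in the KO lists, 7.84 and 9.14 in the WT lists, and 5.54 and 5.12 in the UT lists. It had 1.81 in the first H2O2 list, where the summit lay at nt 332, and 2.79 in the second Starve list, and no peak was called there in the other list of either pair. MCM2, a helicase subunit, reached 9 lists by peaks at scattered positions, with no region shared by 8 lists.

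The share of member regions held by both replicates was higher in KO than in the other conditions, as it was over all regions. Both KO lists held 20 of 34 member regions (58.8%, 95% Wilson interval 42.2% to 73.6%), against 51.2% of all regions. Both WT lists held 6 of 26 (23.1%, 11.03% to 42.1%), against 21.4% of all. The shares were 6 of 58 in H2O2 (10.3%, 4.83% to 20.8%, against 8.0% of all), 13 of 115 in Starve (11.3%, 6.73% to 18.4%, against 8.79%) and 8 of 78 in UT (10.3%, 5.29% to 19.0%, against 9.42%). These intervals cover counting error only, and transcripts of 1 gene repeat its regions. In the Starve pair, 20 members had a peak in both lists and 10 of these (50.0%) had it in the same place, against 43.3% of the 2243 genes with a peak in both lists. Those 10 were CCNB1, CDC20, CDC25A, CDT1, E2F1, GMNN, MCM2, MCM4, SKP2 and TYMS. In AURKB, CCNA2, CDC6, CDK4, E2F3, E2F4, MCM10, MCM7, PLK1 and RB1 the peaks of the 2 Starve lists did not overlap.

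Of 364 member peaks, 171 had the summit within 300 nt of the transcript start (47.0%), against 41.1% of all peaks, and the median of these near summits was nt 155 (quartiles 123 and 189). The share was 76.0% and 75.9% in the KO lists (against 72.7% and 71.6% of all peaks) and 77.8% and 92.9% in the WT lists (against 55.4% and 73.9%). It was 31.7% and 56.5% in the H2O2 lists (against 34.6% and 44.99%), 32.1% and 36.0% in the Starve lists (against 32.04% and 29.2%), and 51.5% and 32.1% in the UT lists (against 37.6% and 31.5%). The higher shares of the KO and WT lists thus held over all peaks too. Regions held by both replicates lay near the start in 17 of 20 cases in KO, 6 of 6 in WT, 5 of 6 in H2O2, 7 of 13 in Starve and 8 of 8 in UT. Over all repeated regions these shares were 76.0%, 83.0%, 71.1%, 61.9% and 64.4%, with Starve the lowest there too.

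The comparison of Starve with UT asked which m1A sites appear under serum starvation. A region was called group-only when it lay in both lists of 1 group and in neither list of the other. Of the 41 members with a peak in the Starve or UT lists, 7 had a Starve-only region (17.1%): CDC20, CDC25A, E2F1, GMNN, MCM2, MCM4 and SKP2. Over all genes the share was 5.34%. MCM3 alone had a UT-only region (2.44% of members), against 4.06% of all genes. TYMS alone had a region in all 4 lists, against 3.18% of all genes. Among 98 other cell cycle genes with a peak, 94 had one in these lists, and 7 of them had a Starve-only region (7.45%) and 4 a UT-only region (4.26%). The first were ANAPC2, ANAPC5, CDCA8, DDB1, PKMYT1, SMC1A and STAG2, and the others MYBL2, TIMELESS, TK1 and WEE1.

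The 2 Starve-only regions with folds of 4 or more in both replicates lay on SKP2 and E2F1. SKP2, the ubiquitin ligase subunit that sends p27 to degradation, had its region at nt 83 to 200 (NM_001243120), with folds of 10.9 and 8.73 in the Starve lists and no peak there in either UT list. Other SKP2 transcripts had a peak at nt 496 to 597 in the first UT list, with a fold of 7.16, and the Starve region was also called in the second KO list with a fold of 4.79. E2F1, a transcription factor of S phase genes, had its Starve-only region far from the start, at nt 1935 to 2060, with folds of 7.37 and 15.1. The second UT list had a peak ending 6 nt short of it, at nt 1829 to 1928 with a fold of 4.16, and the second WT list overlapped it with a fold of 1.87. By fold, the E2F1 region ranked above 90.3% and 91.0% of the peaks in the 2 Starve lists. The SKP2 region ranked above 97.6% and 67.6% of them.

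In the other 5 genes the fold of 1 Starve replicate, or of both, was low. CDC20, the activator of the anaphase-promoting complex, had folds of 2.83 and 11.9 at nt 1215 to 1406 (NM_001255). Its 2 peaks overlapped by only 8 nt and their summits lay 93 nt apart. CDC25A, the phosphatase that activates CDK2, had 2.15 and 10.8 at nt 1858 to 1974 (NM_001789). GMNN had 2.50 and 6.37 at nt 57 to 305 (NM_015895), near the start and with no peak in any list outside Starve. Its transcript NM_001251989 had a peak in the second Starve list only, and NM_001251991 in the first only. MCM2 had 2.62 and 6.51 at nt 274 to 412 (NR_073375). On NM_004526 only the second Starve list had a peak there, with a fold of 4.07, so the MCM2 call concerns 1 transcript. MCM4 had 2.67 and 3.04 at nt 778 to 953 (NM_182746), a region also called in both KO lists and the first H2O2 list. On the MCM4 transcript NM_005914 no peak was called in the second Starve list. The UT-only region of MCM3, at nt 205 to 330 (NM_002388), had folds of 2.28 and 4.42 in UT and was also called in both KO lists, the second WT list and the second H2O2 list.

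**Figure D3:**
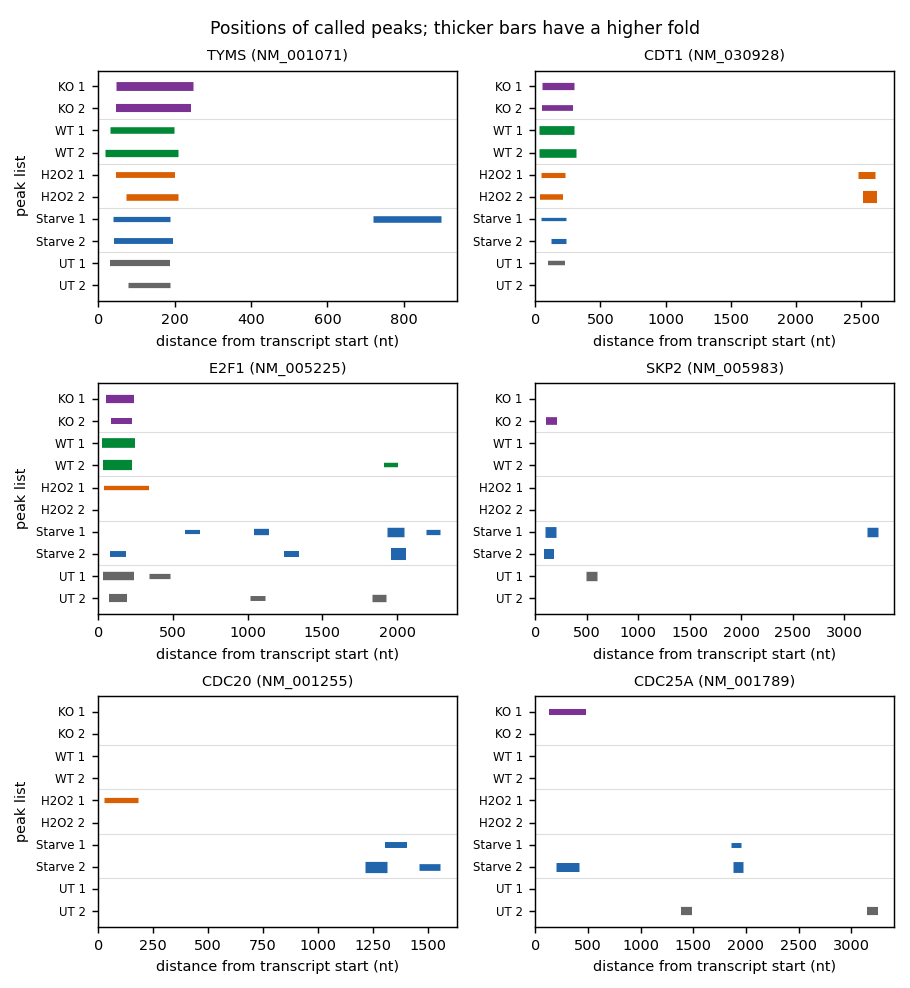
Called peaks along 1 transcript of each of 6 members, as distance from the transcript start in nt, with a row per list and bars thicker at higher fold. TYMS has a peak near the start in all 10 lists and CDT1 in 9, with further peaks in the first Starve list (TYMS) and both H2O2 lists (CDT1). The Starve-only regions of E2F1, CDC20 and CDC25A lie at nt 1935, 1215 and 1858 onward.

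Set against all 8 other lists, 4 of the 10 members with a repeated Starve region had it nowhere else: CDC20, CDC25A, GMNN and MCM2. The same held for 24.7% of all genes with a repeated Starve region. The Starve-only count depended on weak peaks and on list length. With folds of 4 or more, E2F1 and SKP2 remained (2 members, against 3.78% of all genes), and with lists trimmed by strength to the 7871 peaks of the shortest of the 4, 3 members remained, E2F1, MCM4 and SKP2 (against 4.20%). Counted by gene, with a peak anywhere in both Starve lists and none in UT, the 5 members were CDC20, CDC6, CDK4, GMNN and PLK1 (against 6.07% of all genes). Without the first or second Starve list, when 1 list sufficed, the Starve-only count was 20 or 27 (against 42.8% and 51.0%). Without the first or second UT list the UT-only count was 17 or 10 (against 42.4% and 36.6%). Without the first or second Starve list it was 4 or 2 (against 7.39% and 5.76%).

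Hydrogen peroxide gave 1 H2O2-only region among 33 members, against 2.33% of all genes, and no UT-only region, against 5.49%. The region lay at nt 2473 to 2626 of CDT1, beyond the start region described above, with folds of 3.72 and 15.2 in the H2O2 lists. None of the 8 other lists held a CDT1 peak there, as was true of the repeated H2O2 regions of 11.4% of genes. CCND3 and TYMS had a region in all 4 lists, against 2.65% of all genes. CDKN1A, which encodes the inhibitor p21, had a peak that ranked above 94.7% of its list by fold, but in 1 replicate. Its peak at nt 630 to 760 (NM_000389) had a fold of 27.1 in the second H2O2 list, no peak was called in the first, and the second UT list had one at nt 667 to 766 with a fold of 3.81. Of 80 other cell cycle genes, SMC1A alone had an H2O2-only region and 5 had a UT-only region. Without the first or second H2O2 list the H2O2-only count was 5 or 16 (against 21.7% and 37.4%). The UT-only count was then 2 in either case (against 9.19% and 7.05%). Without the first or second UT list the UT-only count was 17 or 11 (against 54.8% and 48.8%). With folds of 4 or more the CDT1 region was lost, and with folds of 4 or more E2F1 became the 1 member with a UT-only region.

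The comparison of KO with WT asked which sites depend on ALKBH3. Of 26 members with a peak in these lists, 7 had a KO-only region (26.9%), against 18.9% of all genes: AURKA, CDK2, MCM2, MCM4, MCM6, PCNA and RRM2. CCNE1 and RB1 had a WT-only region (7.69%), against 5.2% of all genes. CCND3, CDT1, E2F1 and TYMS had a region in all 4 lists (15.4%), against 8.35% of all genes. Of 54 other cell cycle genes, 8 had a KO-only and 3 a WT-only region (14.8% and 5.56%). Of the 7 KO-only genes, MCM2, MCM4, MCM6 and PCNA act in origin licensing and replication. So do CDC6, CDT1, MCM3, MCM5 and MCM7, which had peaks in these lists but no KO-only region. Whether this role was called more often than others was not tested. Without the second KO list the KO-only count was 11 (against 33.0% of all genes), and without the first or second WT list the WT-only count was 6 or 8 (against 30.4% and 23.6%), since 1 list then sufficed.

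AURKA, the centrosomal Aurora kinase, had the highest lower fold, with 6.57 and 5.36 in KO at nt 138 to 250 (NM_198435) and no WT peak. On other AURKA transcripts peaks near the start were called in the first Starve list (2.83) and the second UT list (3.45). RRM2, the small subunit of ribonucleotide reductase, had 5.31 and 3.66 at nt 25 to 290 (NM_001034) and the only other peak on this transcript lay at nt 2729 to 2841 in the first Starve list. CDK2 had 4.26 and 3.62 at nt 115 to 252 (NM_001798). AURKA, CDK2 and RRM2 were the 3 of 14 members whose repeated KO region overlapped no peak on the same transcript in the 8 other lists, against 16.7% of genes. No repeated WT region of the 6 members with one was private to WT in this sense (against 4.39% of genes), and no repeated UT region of 6 members was private to UT (against 20.4%).

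The helicase genes MCM2, MCM4 and MCM6 had KO-only folds of 4.48 and 5.48 (nt 601 to 812 of NR_073375), 3.73 and 3.83 (nt 769 to 945 of NM_182746), and 4.29 and 3.36 (nt 89 to 244 of NM_005915). All 3 regions were also called in the first H2O2 list. That of MCM2 was also called in the first Starve list, and that of MCM4 in both Starve lists. All these lists came from cells of wild-type genotype. On NM_004526 the KO-only region of MCM2 overlapped a peak in the second H2O2 list, with a fold of 6.90. On the MCM4 transcript NM_005914 the only KO peak lay at nt 2851 to 3095, in the second KO list. PCNA, the sliding clamp of the polymerases, had 4.002 and 3.30 in its KO-only region on NM_002592. On its other transcript (NM_182649) the start region had higher folds, 9.72 and 7.04 in KO, and was also called in the first WT list with 4.14, so the KO-only call concerns 1 transcript.

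CCNE1, the cyclin partner of CDK2, and RB1 showed the opposite pattern. The CCNE1 region at nt 18 to 242 (NM_001238) was in neither KO list and had folds of 4.97 and 5.42 in WT. It was also called in the second H2O2 list (2.22), the first Starve list (3.11) and both UT lists (2.74 and 2.38). The RB1 region at nt 66 to 320 (NM_000321) was in neither KO list and had 3.68 and 9.71 in WT. It was also called in the first H2O2 list (7.57), the first Starve list (3.67) and both UT lists (2.59 and 2.20). Each gene thus had the region in 6 of the 8 lists of wild-type genotype and in 0 of the 2 KO lists. Of 396 genes with a region in 6 or more of these 8 lists, 116 had it in no KO list (29.3%), so 2 of 6 members is close to the background.

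UT and WT are both untreated wild-type cells by the labels. Of 33 members, 0 had a UT-only region (against 6.58% of all genes) and 0 a WT-only region (against 2.98%). CCND3, CCNE1, E2F1, RB1 and TYMS had a region in all 4 lists (15.2%), against 3.94% of all genes. Of 83 other cell cycle genes, 7 had a UT-only and 3 a WT-only region. Without the first or second UT list the UT-only count was 19 or 10 (against 69.0% and 63.5%). Without the second WT list it was 2 (against 10.1%). Without the first or second WT list the WT-only count was 3 or 6 (against 15.5% and 11.4%). Without the first UT list the WT-only count was 1 (against 5.70%).

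**Figure D4:**
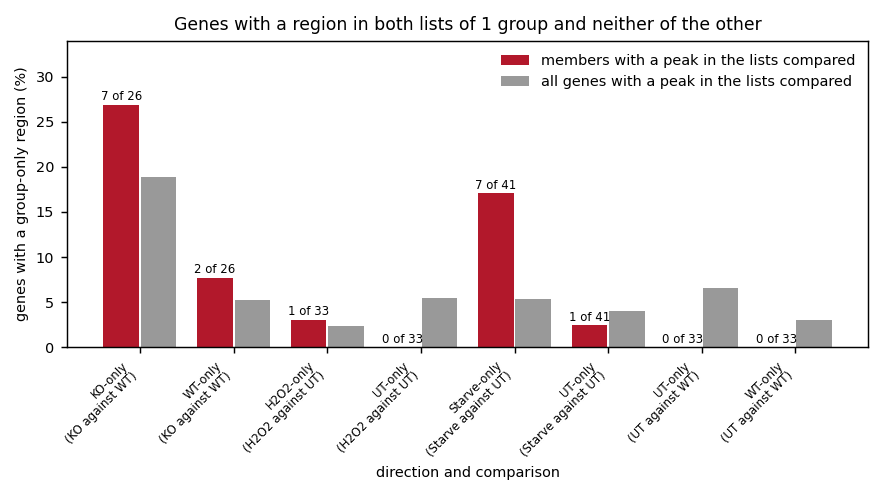
Percent of genes with a group-only region in each direction of the 4 comparisons, for members (red, with counts) and all genes with a peak in the lists compared (grey). Starve-only regions stand at 7 of 41 members against 5.34% of all genes, and KO-only regions at 7 of 26 against 18.9%.

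Coverage in 10 nt windows was deposited for peaks of the KO and WT cells, in IP libraries and in libraries treated with a demethylase after IP. In each genotype the treated columns of replicates 1 and 2 were the same profile up to 1 factor per region. This held in 776 of 776 KO regions and 351 of 351 WT regions of 10 or more shared windows, and in all 6 member regions of each genotype, within 1e-06 on the log2 scale. The IP columns of the same regions differed, with a median SD of 0.39 (KO) and 0.50 (WT) on the log2 scale. The treated data were therefore counted as 1 profile per genotype and entered no test.

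TYMS and CDT1 were the members with windows at the same positions in all 4 files, and so the members that entered the test. CCND3 and E2F1 also had windows in all 4 files, but not at positions shared by all 4. The IP coverage of each region was scaled to a sum of 200 and compared as log2(coverage + 1), so only the shape of a region was tested, not its height. None of 2519 windows passed an adjusted p of 0.05 (0.0%, limma with Benjamini-Hochberg adjustment), and none of the 81 member windows did, the lowest adjusted p being 0.101. Unadjusted p-values were under 0.05 in 567 windows (22.5%) and in 63 of the 81 member windows (77.8%). The member windows overlap one another and lie in the start regions of TYMS and CDT1 alone. The labels name no separate cultures for the replicates, so the p-values cover the spread among these libraries alone, and that spread may be technical.

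The windows with the largest difference in each direction are given as values, with no test, since they were picked for it. Each region is scaled to a fixed sum, so a lower coverage at one end must be met by a higher coverage elsewhere. In CDT1 the window at nt 61 to 70 had a coverage of 1.497 and 1.61 in KO, against 2.61 and 2.61 in WT (log2 difference -0.50). At nt 226 to 235 it had 6.16 and 5.46 in KO, against 3.18 and 3.54 in WT (log2 difference 0.64). In TYMS the window at nt 41 to 50 had 0.694 and 0.957 in KO, against 1.98 and 2.16 in WT (log2 difference -0.75). At nt 196 to 205 it had 5.21 and 4.99 in KO, against 3.14 and 3.09 in WT (log2 difference 0.57). These differences did not pass the adjusted threshold, and whether the 2 genes share a pattern was not tested.

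**Figure D5:**
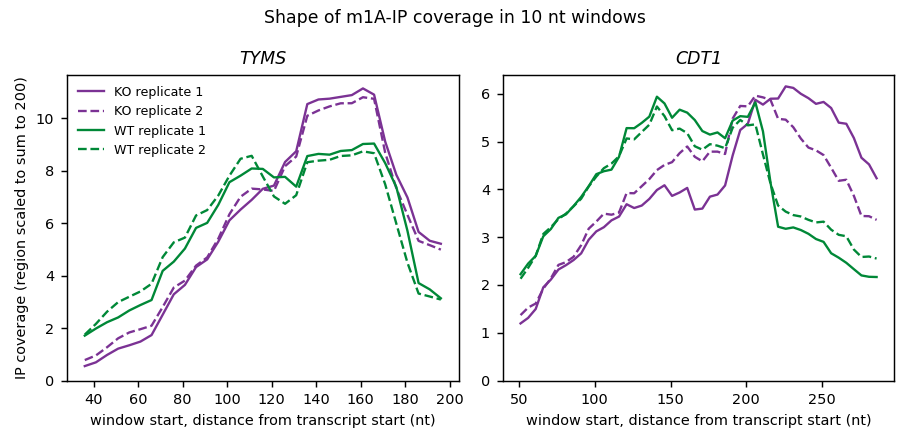
IP coverage of the TYMS and CDT1 start regions in 10 nt windows, each region scaled to a sum of 200, against the distance of the window from the transcript start, with a line per library (KO purple, WT green). In CDT1 the KO lines stand below the WT lines at nt 61 and above them at nt 226; no window passed the adjusted threshold.

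The demethylase profile is given as values only, by the windows where treated coverage was lowest and highest against IP coverage. In TYMS the lowest log2 of treated over IP coverage was -0.29 and -0.23 against the 2 KO IP replicates, at nt 136 to 145, and -1.45 and -1.40 against the 2 WT IP replicates, at nt 196 to 205. In E2F1 it was -0.29 and -0.28 in KO, at nt 54 and 101 onward, and -2.02 and -1.84 in WT, at nt 201 to 210. In CDT1 it was -0.90 and -0.69 in KO, and -0.85 and -1.09 in WT, in the 3′ part of the region in all 4 cases. In CCND3 it was -1.25 and -1.34 in KO, at nt 239 and 179 onward, and -0.45 and -0.38 in WT, at nt 41 to 50. The lowest window was thus at no common end of these regions. Regions with windows in 1 genotype varied likewise: in KO it lay at the 5′ end of CDK2 (-2.03 and -2.23 on NM_001290230) and AURKB (-1.50 and -1.21 on NM_001284526), and at the 3′ end of AURKA (-2.03 and -2.19). In WT, CCNE1 had it at nt 16 to 25 in 1 replicate (-1.23) and at nt 221 to 230 in the other (-1.95), and RB1 at nt 186 to 195 (-1.15) and at nt 76 to 85 (-2.10). The highest log2 of treated over IP coverage in TYMS was 0.43 and 0.33 in KO (nt 71 to 80). In WT it was 0.26 and 0.47 (nt 126 to 135). CDT1 had 0.73 and 0.40 in KO and 0.50 and 0.62 in WT, all within nt 151 to 180. E2F1 had 0.35 and 0.54 in KO, at nt 194 and 46 onward, and 0.66 and 1.11 in WT, at nt 101 and 26 onward. CCND3 had 1.11 and 1.64 in KO, at nt 54 to 63, and 0.36 and 0.57 in WT, at nt 81 and 171 onward. Each of these values rests on 1 treated profile per genotype, and the regions are scaled separately.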

How the data were processed

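Per the file headers, MACS2 was run on every replicate by itself. The submitters' processing notes also name Trim Galore, HISAT and the genome build hg19, without versions. The 10 deposited peak lists give RefSeq transcript positions, the pileup (a coverage signal), the fold over local background as a ratio, and p- and q-values on a −log10 scale. The 4 deposited window files give coverage signal of IP and demethylase-treated libraries, scaled by the authors so that a region sums to about 200, with a deposited score equal to treated minus IP coverage that was not used. The input and IP libraries behind each list are not identified further in the sources used here, and their read depth is unknown. The series has 24 libraries in 12 groups.

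Transcripts were named from a RefSeq table of GRCh38.p14 (17018 of 17315 matched, 98.3%). Peaks overlapping by 1 nt on a transcript were merged over the lists compared. The members, the list of 118 other cell cycle genes and the marker genes were chosen with earlier results of these data known. Genes are named if they have a group-only region, a region in 8 or more lists, or no peak; other cell cycle genes if they have a Starve-only or UT-only region; the remaining names, and the treated values quoted, were chosen after their values were seen.

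The planned limma tests on treated over IP coverage were not run, since the treated replicates are 1 profile and leave no residual degrees of freedom. In their place, limma 3.58.1 (R 4.3.3) tested log2(IP coverage + 1), a choice made after seeing the data, over windows with a mean coverage of at least 1 in regions of 10 windows or more. Region calls (Python 3.11.15, pandas 2.3.3) and limma were tested on simulated data. Alternatives covered fold and q-value limits, list length, overlap, transcripts and left-out replicates.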

Additional observations from a re-analysis of the deposited data

How the results depend on the processing

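With folds of 4 or more, 2 members had a KO-only region (AURKA and MCM2, against 17.6% of all genes), 1 a WT-only region (7.5%), 0 an H2O2-only region (2.02%), 2 a Starve-only region (3.78%), 1 a UT-only region against H2O2 (2.71%) and 2 a WT-only region against UT (2.98%). With the lists of a comparison trimmed by peak strength to the length of the shortest, the count was 0 for H2O2-only (2.53% of all genes) and 1 for UT-only regions against H2O2 (2.57%), at 3903 peaks a list. It was 3 for Starve-only regions (4.20%) at 7871 peaks and 2 for WT-only regions against UT (8.32%) at 2175. With −log10 q of 5 or more the UT-only count against Starve was 0 (3.58%), and with an overlap of 50 nt or more the UT-only count against WT was 1 (MCM3, against 5.38%). Counted by gene, 0 members were H2O2-only (2.49%), and 2 were UT-only against each of H2O2 (8.24%), Starve (4.08%) and WT (14.2%). Summits within 200 nt of the start made up 17.2% of H2O2 member regions, against 36.2% within 300 nt. With folds of 4 or more, 23.8% of KO and 5.80% of Starve member regions lay in both lists. These shares of regions, at 200 nt and at folds of 4 or more, were computed for members only. They cannot be set against all regions.

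Leaving out 1 list at a time, the counts ran from 8 to 11 for KO-only regions (against 22.6% to 34.9% of all genes). They ran from 2 to 8 for WT-only regions (7.33% to 30.4%) and 1 to 16 for H2O2-only regions (3.77% to 37.4%). For UT-only regions against H2O2 they ran from 2 to 17 (7.05% to 54.8%). The range was 7 to 27 for Starve-only regions (7.74% to 51.0%) and 2 to 17 for UT-only regions against Starve (5.76% to 42.4%). Between UT and WT it was 0 to 19 for UT-only (7.17% to 69.0%) and 0 to 6 for WT-only regions (5.70% to 15.5%). The shares of all genes thus moved with the list left out too. In all, 68 alternative values stayed within 1.5 times the reported count, or within the 95% Wilson interval of the reported share, and 40 did not. A like count can hold other genes: the 1 UT-only member against Starve was MCM3 as reported and E2F1 with folds of 4 or more.

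The window test, added after seeing the data, called 0 member windows as reported, on the deposited scale, with a pseudocount of 0.1, with no filter, and without each library in turn. With the replicate number as a block it also called 0. The labels do not say that the numbers pair the samples, and the correlation of same-numbered deviations was 0.0538 over 2519 windows. The planned tests on treated over IP coverage, with their pseudocount, filter, block and left-out replicates, were not run, for the reason given under processing. Read depth is unknown, so no detection limit can be given for an uncalled region.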

Other observations

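Several member peaks with high folds were called in 1 list and not in its replicate. By fold those named here ranked above 96.6% (MCM6), 90.4% (MCM2), 76.9% (CDC6) and 93.4% (E2F2) of the peaks of their list. In the second Starve list MCM6, a helicase subunit, had a fold of 17.5 at nt 1961 to 2105 (NM_005915), and MCM2 had 14.9 at nt 3301 to 3414 (NM_004526), with no peak at either place in the first Starve list. CDC6, the loading factor of the helicase, had 11.2 at nt 65 to 185 (NM_001254) in the second Starve list. Its peak in the first Starve list lay at nt 353 to 453 with a fold of 4.58, whereas the second WT list had one at nt 65 to 182 with a fold of 4.36. E2F2, an E2F factor, had 10.1 at nt 3291 to 3390 (NM_004091) in the first H2O2 list alone.

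E2F4, which represses cell cycle genes in resting cells, had peaks in both Starve lists at different places of NM_001950. In the first Starve list its main peak lay at nt 1837 to 1944, with a fold of 11.1, and peaks overlapping this place were called in the first UT list (6.47) and the first WT list (2.97). In the second Starve list its peaks lay at nt 414 to 513, 646 to 754 and 1056 to 1205, with folds of 4.67, 8.66 and 7.61. These genes were chosen after their values were seen, and no test was made.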
